A study of Mus musculus with 6 samples.

Results

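The genes described here are 46 genes of mitosis, the kinetochore and the spindle checkpoint, chosen by name for their function. They are 46 rows among the 26096 genes of the deposited table, and were chosen with earlier results of these data known. Their counts beside the shares of all genes are therefore a description. RNA was sequenced from microglia of WT mice, which are macrophages that live in the brain. Medium conditioned by ferroptotic BMDMs (macrophages grown from bone marrow) was given to 3 samples, called ferroptotic medium below, and medium conditioned by normal BMDMs to the other 3, called control medium. Ferroptosis is an iron-dependent cell death driven by lipid peroxidation, and the comparison asks what medium from such dying macrophages does to microglia. The labels give neither the inducer of ferroptosis, nor the time of exposure, nor whether the microglia were primary cells or a line. They also do not say whether replicates were cultured separately, so that the p-values reflect the spread of these libraries alone, possibly a technical one.

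Cells enter mitosis when the kinase CDK1, bound to cyclin A or B, is switched on by CDC25 phosphatases, with Polo-like and Aurora kinases acting beside it. Kinetochores then attach chromosomes to spindle microtubules, and the spindle checkpoint holds back CDC20 and the anaphase promoting complex until every chromosome is attached. Most of these genes are transcribed late in the cell cycle through the factors B-MYB and FOXM1 and are shut off in resting cells by the DREAM complex, so their mRNA is widely read as a sign of cycling cells. Microglia divide slowly in the healthy adult brain and faster after injury and in culture.

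All 46 genes fell with ferroptotic medium, each with an adjusted p under 0.05, and 0 rose. All 46 were among the 15597 genes that passed a filter on low counts. Of the 15597 genes tested, 42.5% passed that threshold, 22.8% by falling and 19.7% by rising. A normalized count is a read count divided by a size factor of its library. The test was limma on log2(normalized count + 1), adjusted by Benjamini-Hochberg over all 15597 genes, and every log2 fold change below is ferroptotic over control on that scale. The median of the 46 was -1.50, against -0.0050 for all genes tested, and the range ran from -2.11 (Plk1 and Cenpf) to -0.59 (Bub3). In 44 of the 46 the fall was at least 2-fold, as it was in 3.7% of all genes tested (3.95% rose that much). In all 46 the 3 ferroptotic libraries lay below the 3 control libraries, which held for 28.2% of genes tested. Together the 46 genes took 0.222%, 0.225% and 0.229% of the reads assigned to genes in the ferroptotic libraries, against 0.627%, 0.620% and 0.625% in the control libraries. These are bulk samples, in which fewer dividing cells and less mRNA per dividing cell cannot be told apart.

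**Figure D1:**
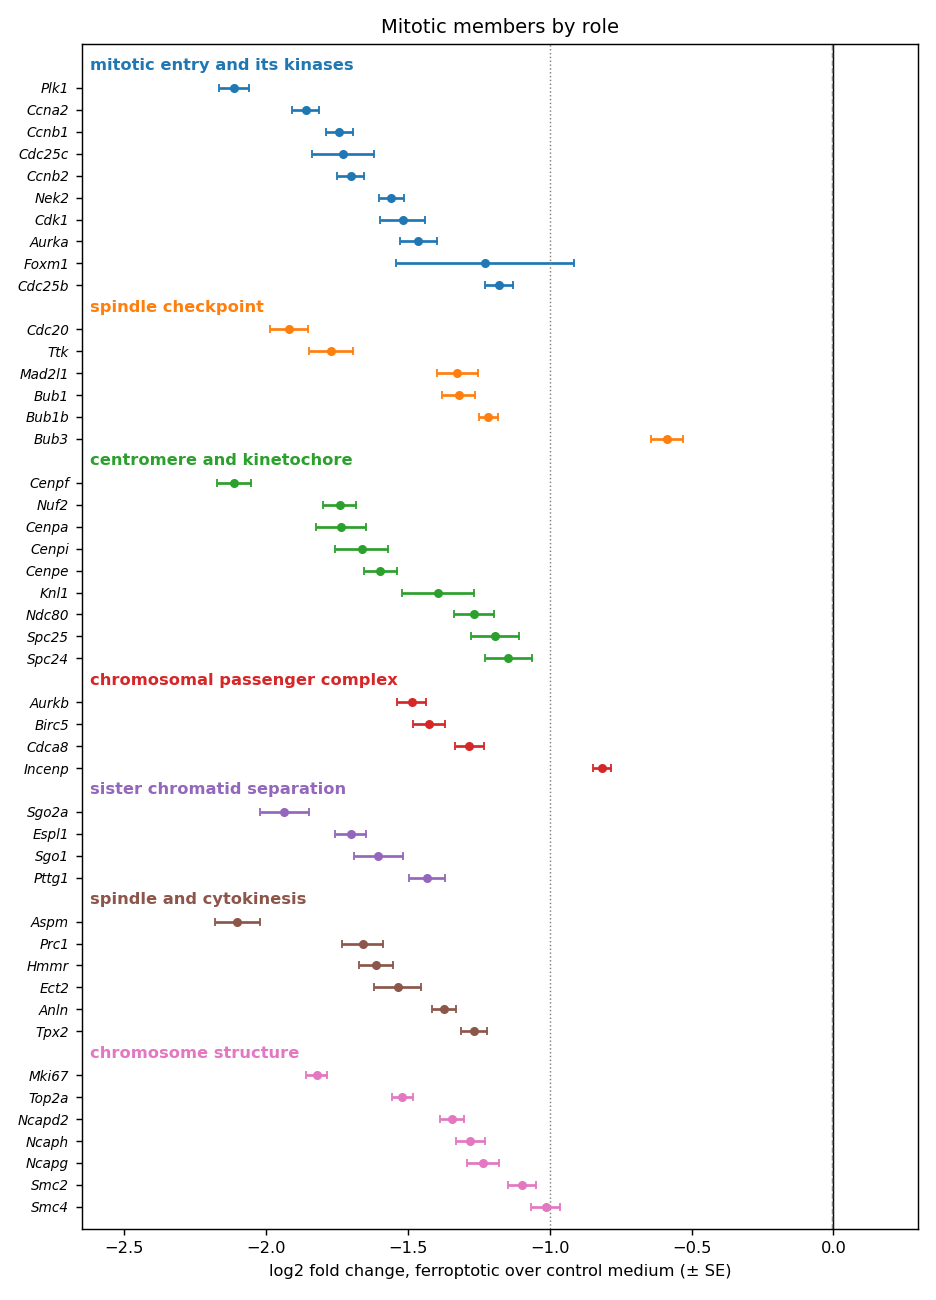
Log2 fold change, ferroptotic over control medium, of the 46 genes (points) with the moderated standard error (bars), grouped by role and ordered by size within a role. The dotted line marks a 2-fold fall, and the dashed line, which almost meets 0, the median of all genes tested. All points lie left of 0, Bub3 and Incenp alone lie right of the dotted line, and Foxm1 has the widest bar.

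Genes of this kind share promoter elements, and promoters are shown here for that reason. Since the 46 genes were chosen by function, the shares below describe that choice. Mitotic genes that did not fall were not compared, and a link of the elements to the fall was not tested. The CHR element, written TTTGAA, is bound by DREAM and B-MYB complexes, and the CCAAT box by NF-Y. RefSeq promoter windows (GRCm38.p6, 250 bases before to 50 after the gene start) were at hand for 38 of the 46 genes. TTTGAA stood on either strand in 25 of the 38, or 65.8%, against 20.2% of 27025 genes with a window and 15.0% of the 9874 of these that were tested here. CCAAT, on either strand, stood in 30 of the 38, or 78.9%, against 41.1% of all and 43.1% of tested genes. Both were in the same window in 22 of the 38 (57.9%), against 7.97% of all and 6.21% of tested genes. The sequences below run 5′ to 3′ on the gene's strand from 100 bases before the gene start to 30 bases after it, with both elements in capitals wherever they occur (TTCAAA and ATTGG are the same elements read on the other strand). The first 8 were chosen, with values known, because they hold both elements in this stretch, and go from genes that fell far to the gene that fell least. In 16 of the 38 genes the window lacks one or both. Sgo2a and Nuf2 are shown as genes that fell far with neither element in the stretch printed (-1.94 for Sgo2a and -1.74 for Nuf2). The Nuf2 window has neither element, and the Sgo2a window used here has CCAAT further upstream but no TTTGAA. Sgo2a has another RefSeq window, at a different gene start, with CCAAT 13 bases after that start and no TTTGAA.
Cenpf: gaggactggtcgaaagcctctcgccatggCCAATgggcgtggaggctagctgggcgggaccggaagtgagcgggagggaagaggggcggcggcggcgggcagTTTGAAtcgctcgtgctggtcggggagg
Aspm: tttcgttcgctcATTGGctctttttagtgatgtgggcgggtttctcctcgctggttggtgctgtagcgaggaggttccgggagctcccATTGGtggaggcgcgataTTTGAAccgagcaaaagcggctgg
Cdc20: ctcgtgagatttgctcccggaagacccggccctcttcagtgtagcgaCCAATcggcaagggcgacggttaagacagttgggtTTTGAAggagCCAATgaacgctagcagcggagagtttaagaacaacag
Ccnb2: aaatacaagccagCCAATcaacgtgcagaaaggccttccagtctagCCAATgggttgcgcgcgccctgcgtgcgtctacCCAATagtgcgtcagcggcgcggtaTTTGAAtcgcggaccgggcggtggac
Hmmr: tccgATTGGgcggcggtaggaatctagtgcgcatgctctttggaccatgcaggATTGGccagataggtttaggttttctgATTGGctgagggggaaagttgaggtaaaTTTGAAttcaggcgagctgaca
Top2a: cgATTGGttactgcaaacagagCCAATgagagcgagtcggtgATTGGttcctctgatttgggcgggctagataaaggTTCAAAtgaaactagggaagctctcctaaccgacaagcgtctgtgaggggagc
Cdk1: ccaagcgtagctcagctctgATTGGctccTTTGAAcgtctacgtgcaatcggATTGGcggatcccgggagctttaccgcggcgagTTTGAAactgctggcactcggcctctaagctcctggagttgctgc
Bub3: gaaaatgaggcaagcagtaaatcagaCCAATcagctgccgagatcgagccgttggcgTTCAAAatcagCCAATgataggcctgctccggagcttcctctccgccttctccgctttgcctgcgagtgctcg
Sgo2a: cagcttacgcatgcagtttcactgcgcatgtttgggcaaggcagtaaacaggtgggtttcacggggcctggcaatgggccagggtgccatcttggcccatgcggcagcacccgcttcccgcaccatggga
Nuf2: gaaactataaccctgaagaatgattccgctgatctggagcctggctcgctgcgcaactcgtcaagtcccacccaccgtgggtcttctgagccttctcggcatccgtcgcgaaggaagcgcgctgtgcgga

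In GRCm38.p6 these stretches are chr1:189688057-189688186 (minus strand) for Cenpf, chr1:139454673-139454802 (plus) for Aspm, chr4:118437314-118437443 (minus) for Cdc20 and chr9:70421525-70421654 (minus) for Ccnb2. Further stretches are chr11:40733408-40733537 (minus) for Hmmr, chr11:99024160-99024289 (minus) for Top2a, chr10:69352883-69353012 (minus) for Cdk1 and chr7:131560270-131560399 (plus) for Bub3, with chr1:57985240-57985369 (plus) for Sgo2a and chr1:169531435-169531564 (minus) for Nuf2. In Cenpf, Aspm, Ccnb2 and Hmmr the TTTGAA begins 2, 6, 4 and 8 bases after the gene start, with CCAAT boxes upstream. Over the 25 genes with the element, 23 had a match beginning within 50 bases of the gene start. Medians lay close whether or not TTTGAA was there, the only form used for this split. The median log2 fold change was -1.52 in the 25 genes with TTTGAA and -1.56 in the 13 without it, and Bub3, with the smallest fall, has both elements. For CCAAT the medians were -1.60 in the 30 genes with it and -1.38 in the 8 without it. Of the other motifs searched on both strands, TTCGAA stood in 5 of the 38 genes (1.80% of all and 2.46% of tested genes) and GGGGCGGGG in 5 (12.9% of all and 24.0% of tested genes). TTTGGCGC stood in 1 (0.585% of all and 1.13% of tested genes), TATAAA in 1 (15.7% of all and 8.62% of tested genes) and GGCGGGAA in 0 (2.52% of all and 4.70% of tested genes). These matches are letters in a window, and binding was not measured.

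**Figure D2:**
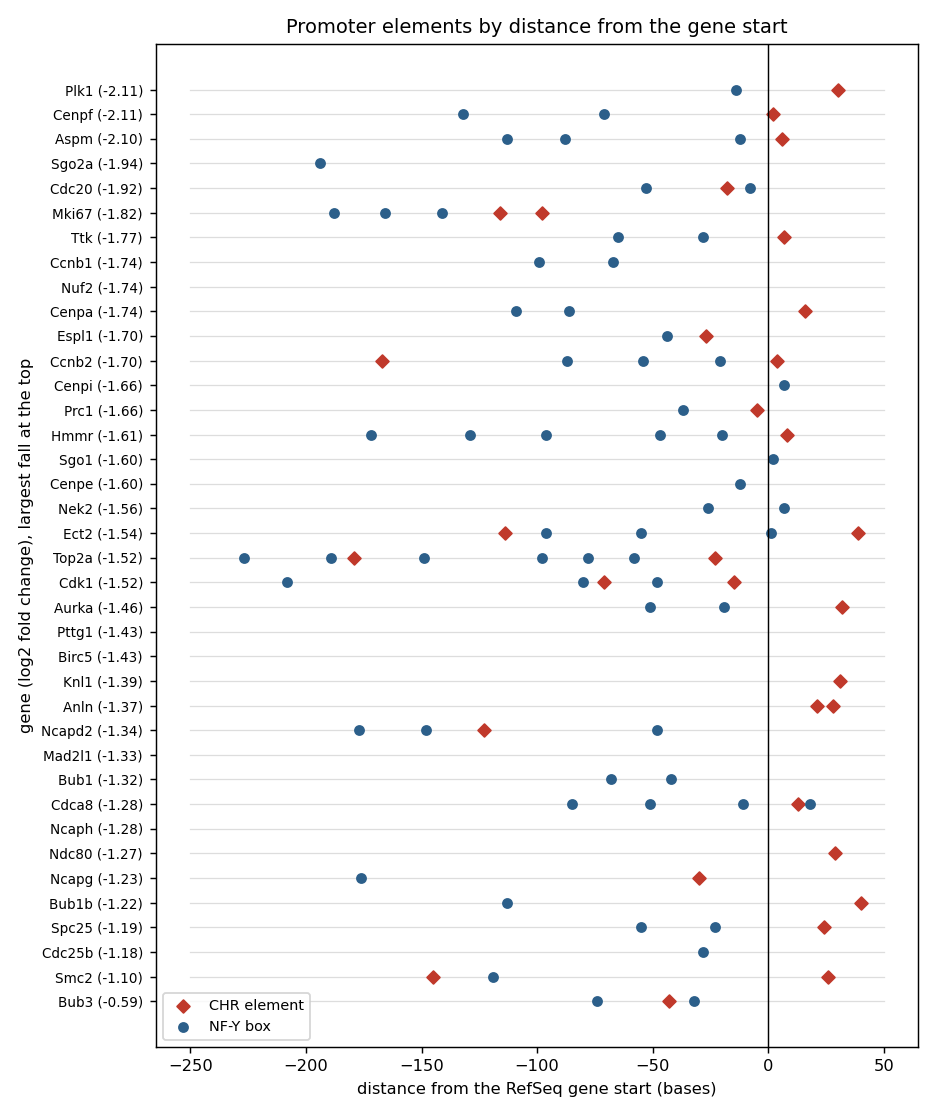
Matches to the CHR element (red diamonds) and the CCAAT box bound by NF-Y (blue circles) by distance in bases from the RefSeq gene start, for the 38 genes with a promoter window, 1 window per gene, ordered from the largest fall at the top to the smallest at the bottom. In 23 of the 25 genes with a CHR element one lies within 50 bases of the start, and Bub3, at the bottom, has both elements.

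Among the genes that drive entry into mitosis all 10 fell, with a median of -1.63. Plk1 (ENSMUSG00000030867), the Polo-like kinase that promotes entry and spindle assembly, had 953, 962 and 1030.0 normalized counts with ferroptotic medium and 4172, 4195 and 4385 with control medium. The ferroptotic libraries were at 23.1% of the control mean and lay close together, and this was the largest fall of the 46 (log2 fold change -2.11, SE 0.052; limma adjusted p = 2.63e-08). By size it ranked 87 among the falls of all 15597 genes. Cdc25b (ENSMUSG00000027330), a phosphatase that activates CDK1 early in entry, had 2051, 1860.2 and 1894 normalized counts with ferroptotic medium, against 4361, 4425 and 4352 with control medium. It fell least in this group (-1.18, SE 0.049; limma adjusted p = 3.3e-07), and its relative Cdc25c (272 ± 37.4 with ferroptotic and 898 ± 41.4 with control medium, mean ± SD, n = 3 each), fell by 1.73 on the log2 scale.

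The cyclins that bind the kinase CDK1 had larger falls than Cdk1 itself (-1.52, SE 0.080), though these differences were not tested. Ccna2, the cyclin of S phase and early mitosis, averaged 2278 ± 114 normalized counts with ferroptotic medium and 8275 ± 188 with control medium (SD, n = 3 each; -1.86, SE 0.046). Ccnb1, the main mitotic cyclin, changed by -1.74 and Ccnb2, the B cyclin found at the Golgi, by -1.70. The kinases Aurka, which matures centrosomes, and Nek2, which lets centrosomes part, fell by 1.46 and 1.56 on the log2 scale.

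Foxm1 (ENSMUSG00000001517), the transcription factor that drives many of the other genes here, was the exception in precision. It had 1988, 1835 and 2185 normalized counts with ferroptotic medium and 6759.5, 4887 and 3109 with control medium. The groups did not overlap, but its control libraries differed 2.17-fold between the highest and the lowest, where no other of the 46 differed more than 1.21-fold among controls. Its fall (-1.23, SE 0.31; limma adjusted p = 0.0343) was the only call of the 46 that depended on the fit. Its adjusted p lay at 0.0551 in limma-voom, at 0.103, 0.108 and 0.0814 without ferroptotic replicate 1, 2 or 3, and at 0.108 without control replicate 2. Rhno1, which starts beside Foxm1 on the opposite strand, had 1612, 1335 and 1660.2 normalized counts with ferroptotic medium and 1701, 1769 and 1938 with control medium and differed 1.14-fold among controls.

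**Figure D3:**
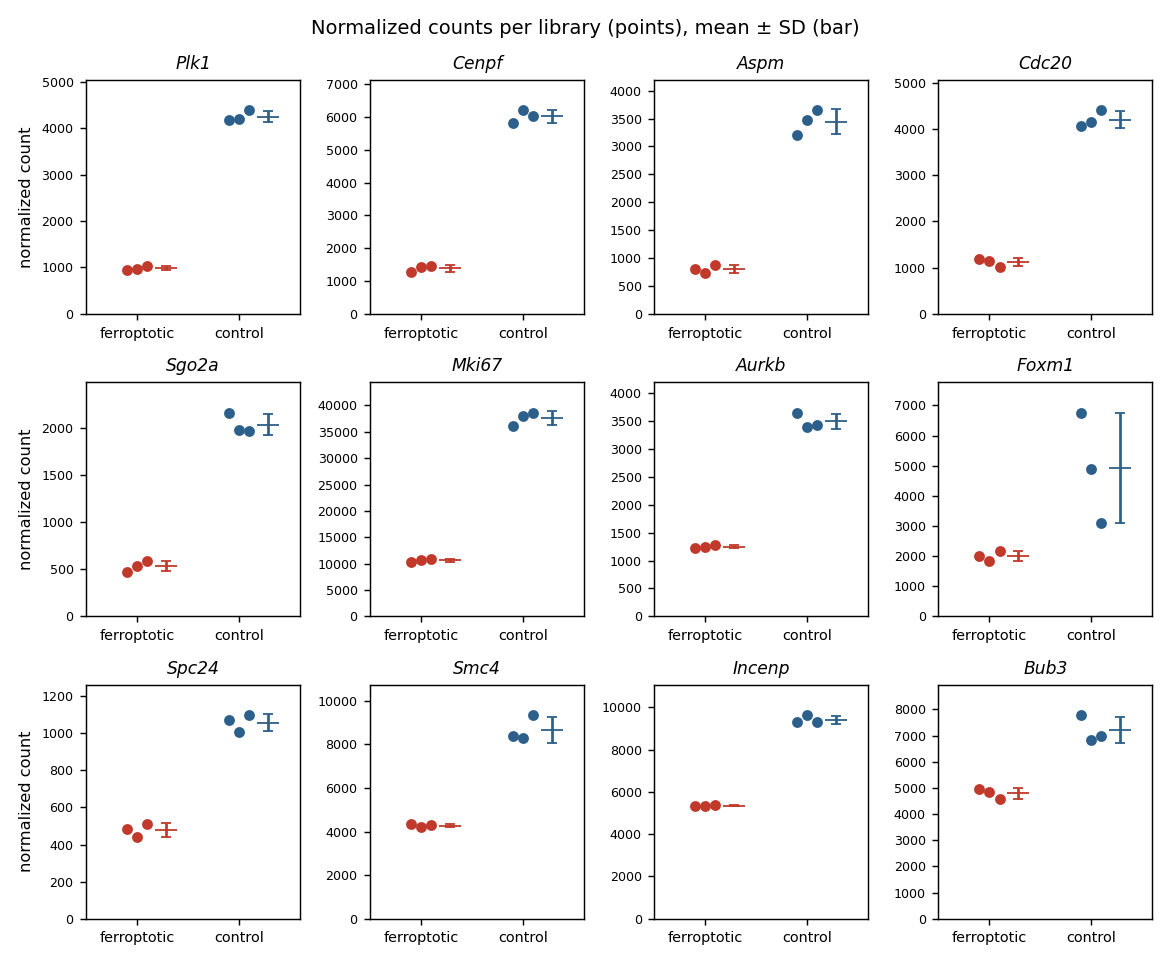
Normalized counts of 12 of the 46 genes in each library (points; 3 with ferroptotic medium in red, left, and 3 with control medium in blue, right) with the mean ± SD beside them; each vertical axis starts at 0. The groups are apart in every panel, the control points of Foxm1 run from 3109 to 6759.5, and the gap is narrowest in proportion for Bub3.

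The 6 spindle checkpoint genes all fell, with a median of -1.32 and the widest range of any group. Cdc20 (ENSMUSG00000006398), the activator of the anaphase promoting complex that the checkpoint restrains, had 1189, 1136 and 1017 normalized counts with ferroptotic medium and 4064, 4149.5 and 4407 with control medium. It fell by 1.92 on the log2 scale (SE 0.067; limma adjusted p = 1.37e-07). Up to 53 of its exon bases are shared with Elovl1 on the other strand, which averaged 3278 normalized counts with ferroptotic medium and 3308 with control medium. Ttk, the kinase that starts checkpoint signalling at kinetochores, averaged 689 ± 65.7 and 2351 ± 36.6 with ferroptotic and control medium (SD, n = 3 each; -1.77, SE 0.077).

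MAD2, BUBR1 and BUB3 form the complex that binds and inhibits CDC20. Mad2l1, whose product MAD2 changes shape to seize CDC20, changed by -1.33 (SE 0.072), and Bub1b, which encodes BUBR1, by -1.22 (SE 0.034). Bub1, a checkpoint kinase of the kinetochore outside that complex, changed by -1.32 (SE 0.059). Bub3 (ENSMUSG00000066979), the propeller protein that carries BUB1 and BUBR1 to kinetochores, had 4966, 4843 and 4566 normalized counts with ferroptotic medium and 7780.0, 6851 and 6987 with control medium. The groups were still apart, and the ferroptotic mean was 66.5% of the control mean. The fall was the smallest of the 46 (-0.59, SE 0.056; limma adjusted p = 4.75e-05) and ranked 1925 among all falls.

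All 9 centromere and kinetochore genes fell, with a median of -1.60. Cenpf (ENSMUSG00000026605), a large protein of the outer kinetochore corona, had 1274, 1431 and 1472 normalized counts with ferroptotic medium and 5828, 6203 and 6023 with control medium. The ferroptotic mean was 23.1% of the control mean (-2.11, SE 0.061; limma adjusted p = 5.68e-08). Cenpe, the kinesin that carries chromosomes to the spindle equator, changed by -1.60 (SE 0.059). Cenpa, the histone variant that marks centromeres, averaged 899.6 ± 103 and 2989 ± 196 normalized counts with ferroptotic and control medium (SD, n = 3 each; -1.74, SE 0.089), and Cenpi, of the inner kinetochore, changed by -1.66.

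The microtubule-binding NDC80 complex has the subunits NDC80, NUF2, SPC24 and SPC25, and all 4 of their genes fell. Nuf2 changed by -1.74 (SE 0.060), Ndc80 by -1.27 (SE 0.070) and Spc25 by -1.19 (SE 0.084). Spc24 (ENSMUSG00000074476) had 484, 438 and 512 normalized counts with ferroptotic medium and 1068, 1006 and 1096 with control medium, the smallest fall among kinetochore genes (-1.15, SE 0.083; limma adjusted p = 8.9e-06). Knl1, the scaffold that recruits BUB1, changed by -1.39. Its ferroptotic libraries were the most spread of the 46, at 1136, 1076 and 1476, and stayed below the control libraries at 3495, 3128 and 3006.

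In the chromosomal passenger complex, which corrects wrong attachments and later guides cytokinesis, all 4 genes fell, the scaffold with the smallest change. Aurkb (ENSMUSG00000020897), the kinase, had 1219, 1243 and 1270.3 normalized counts with ferroptotic medium and 3646, 3391 and 3434 with control medium (-1.49, SE 0.050; limma adjusted p = 1.11e-07). Birc5, which encodes survivin, changed by -1.43 and Cdca8, which encodes borealin, by -1.28. Incenp (ENSMUSG00000024660), the scaffold that holds the others and activates the kinase, had 5315, 5340.1 and 5365 normalized counts with ferroptotic medium, against 9285, 9621 and 9285 with control medium. It stayed at 56.8% of the control mean (-0.82, SE 0.032; limma adjusted p = 2.45e-07), and with Bub3 it was outside the 44 genes that fell at least 2-fold.

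The 4 genes of sister chromatid separation fell, with a median of -1.65. Sgo2a (ENSMUSG00000026039), a shugoshin that protects centromeric cohesin, had 475, 537 and 584 normalized counts with ferroptotic medium and 2159, 1976 and 1965 with control medium (-1.94, SE 0.087; limma adjusted p = 5.06e-07). Up to 2358 exon bases of Sgo2a are shared with Kctd18 on the other strand. Kctd18 averaged 495 normalized counts with ferroptotic medium and 396 with control medium, so that without strand some reads cannot be told apart. Sgo1, the shugoshin of mitotic cohesin, changed by -1.60, and Espl1, the protease separase that cuts cohesin, by -1.70. Pttg1 (ENSMUSG00000020415), the securin that holds separase inactive, had 721, 761 and 799 normalized counts with ferroptotic medium and 2137, 1979 and 2047 with control medium, the smallest change of the 4 (-1.43, SE 0.064; limma adjusted p = 4.91e-07).

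Spindle and cytokinesis genes fell in 6 of 6 cases, with a median of -1.57. Aspm (ENSMUSG00000033952), which focuses spindle poles, had 799, 729.5 and 879 normalized counts with ferroptotic medium and 3211, 3468 and 3648 with control medium, next in size after Plk1 and Cenpf (-2.10, SE 0.080; limma adjusted p = 2.16e-07). Prc1, which bundles the midzone microtubules, changed by -1.66, the spindle and hyaluronan-binding gene Hmmr by -1.61, the RhoA activator Ect2 by -1.54 and the contractile ring scaffold Anln by -1.37. Tpx2 (ENSMUSG00000027469), which activates Aurora A on the spindle, had 3752, 3543 and 3955 normalized counts with ferroptotic medium and 9119.8, 8928 and 9026 with control medium (-1.27, SE 0.045; limma adjusted p = 1.43e-07).

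The 7 genes of chromosome structure had the smallest fall as a group, with a median of -1.28. Mki67 (ENSMUSG00000031004), which coats mitotic chromosomes and is the antigen of the Ki-67 proliferation stain, had 10220.0, 10751 and 10883 normalized counts with ferroptotic medium and 36059, 37951 and 38620.0 with control medium. It changed by -1.82 (SE 0.037; limma adjusted p = 8.65e-09), and Top2a, the topoisomerase that untangles chromatids, by -1.52 (SE 0.038). The 5 condensin I genes had smaller log2 fold changes than these. Of its regulatory subunits Ncapd2 changed by -1.34, Ncaph by -1.28 and Ncapg by -1.23, and of its ATPase subunits, which condensin II also uses, Smc2 by -1.10. Smc4 (ENSMUSG00000034349) had 4325, 4224 and 4283 normalized counts with ferroptotic medium and 8362, 8273 and 9334 with control medium (-1.01, SE 0.050; limma adjusted p = 8.19e-07).

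Partners were also compared within each library, since a ratio of 2 genes in the same library is free of its scaling. In 14 pairs picked for known partnership or relatedness, with values known, the log2 ratio of normalized counts was tested by a two-sided exact permutation test, which with 3 against 3 libraries cannot go below p = 0.1, so no pair could pass 0.05, before or after adjustment over the 14. Since the pairs were picked with values known and no share over all gene pairs was computed, the values below are a description. The ratios did not overlap between the groups in 11 pairs, where p was at that floor. The log2 ratio of Bub1 to Bub3 averaged -0.79 ± 0.171 in ferroptotic libraries and -0.06 ± 0.0882 in control libraries (SD, n = 3 each), a difference of -0.73. Aurkb to Incenp averaged -2.10 ± 0.0232 and -1.43 ± 0.0781 in ferroptotic and control libraries, a difference of -0.67. Among kinetochore partners the difference was -0.47 for Nuf2 to Ndc80 and -0.52 for Cenpf to Cenpe. It was -0.60 for Plk1 to Cdk1, -0.59 for Cdc20 to Mad2l1, -0.55 for Cdc25c to Cdc25b and -0.30 for Mki67 to Top2a.

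In 3 pairs the ratios overlapped between the media. Aurka to Aurkb averaged 0.42 ± 0.0875 in ferroptotic libraries and 0.39 ± 0.0915 in control libraries (SD, n = 3 each; exact permutation p = 0.7). Ccnb1 to Ccnb2 averaged 0.74 ± 0.0679 and 0.78 ± 0.0635 (ferroptotic and control; exact permutation p = 0.5), and Spc25 to Spc24 averaged 0.70 ± 0.0281 and 0.75 ± 0.0775 (ferroptotic and control; exact permutation p = 0.4). These p-values do not show that the partners fell by the same amount.

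Levels per transcript length were given as FPKM (fragments per kilobase of transcript, scaled to library depth) for 44 of the 46 genes, all but Bub3 and Incenp, in the authors' deposited table of changed genes, where no gene has a log2 fold change smaller than 1.00 in size. On that scale the 44 genes had a median of 6.19 FPKM with ferroptotic medium and 17.8 FPKM with control medium. With control medium Mki67 was highest, at 21.6 ± 0.620 FPKM with ferroptotic and 77.5 ± 2.44 FPKM with control medium (SD, n = 3 each), followed by Top2a at 22.7 ± 0.875 FPKM with ferroptotic and 66.1 ± 0.911 FPKM with control medium. With ferroptotic medium the libraries of Mki67 and Top2a overlapped on this scale, with Top2a at 21.8, 22.9 and 23.5 FPKM and Mki67 at 20.9, 22.0 and 21.9 FPKM. Cdc25c was lowest with either medium, at 1.13 ± 0.161 FPKM with ferroptotic and 3.81 ± 0.167 FPKM with control medium.

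Subunits of a complex stood at unlike FPKM levels. In the NDC80 complex with ferroptotic medium, Spc25 was at 4.99 ± 0.255, Spc24 at 3.79 ± 0.265, Nuf2 at 3.09 ± 0.224 and Ndc80 at 2.72 ± 0.142 FPKM. With control medium the values were 11.6 ± 1.06 for Spc25, 8.53 ± 0.349 for Spc24, 10.5 ± 0.115 for Nuf2 and 6.64 ± 0.406 FPKM for Ndc80 (SD, n = 3 each). Nuf2 thus lay below Spc24 in every ferroptotic library and above it in every control library. In the checkpoint with ferroptotic medium, Bub1b was at 20.2 ± 0.412 and Cdc20 at 12.3 ± 1.08 FPKM, with no overlap between the libraries of the 2 genes. With control medium they overlapped, Bub1b at 47.6 ± 0.687 and Cdc20 at 47.0 ± 1.76 FPKM. Plk1, at 9.17 ± 0.304 FPKM with ferroptotic and 40.3 ± 0.903 FPKM with control medium, ranked 14 and 7 among the 44 genes in those media.

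**Figure D4:**
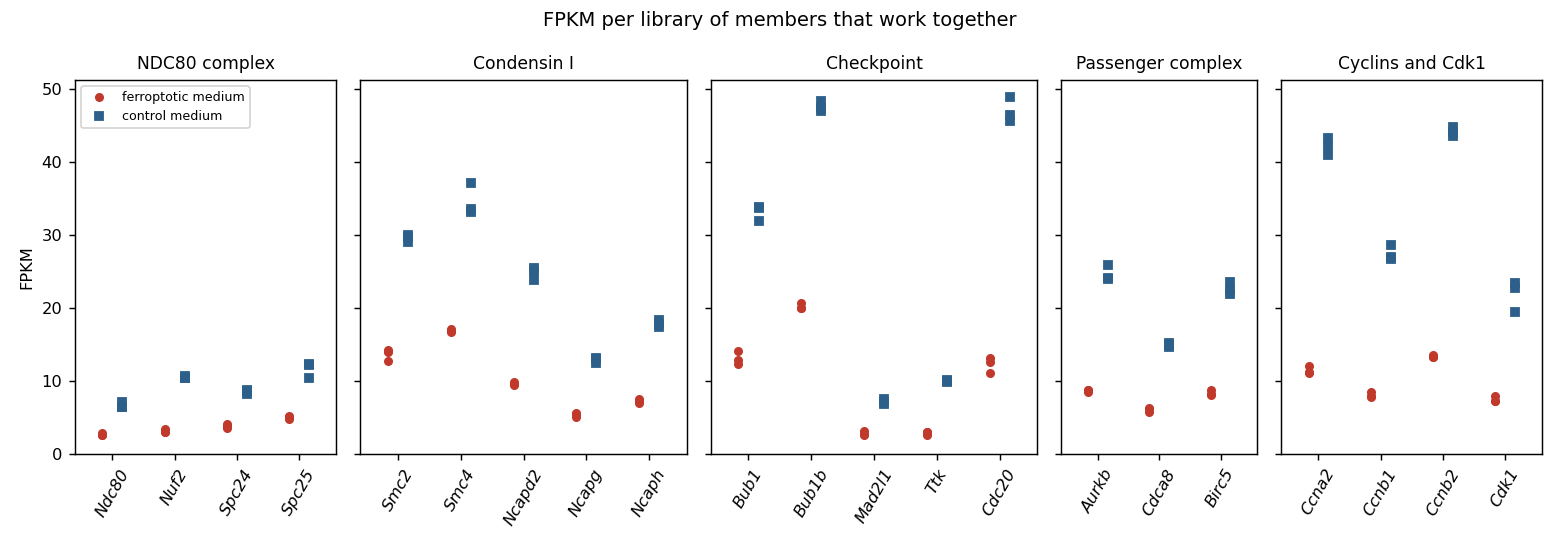
FPKM in each library (red circles, 3 with ferroptotic medium; blue squares, 3 with control medium) for members that work together, on a shared axis that starts at 0. Every gene is lower with ferroptotic medium, Cdc20 lies below Bub1b in ferroptotic libraries and beside it in control ones, and Nuf2 changes places with Spc24.

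A further 100 mitotic genes, listed by function with earlier results of these data known, fell less evenly. Of these 100 genes 79 were lower, 3 higher and 18 not passing, where 22.8% of genes tested were lower and 19.7% higher. Their median was -0.72, and 36 fell at least 2-fold, as did 3.7% of genes tested. The largest falls in their groups were Ube2c, the ubiquitin-conjugating enzyme of the anaphase promoting complex (-1.93, SE 0.044), Ccnf, an F-box cyclin (-1.88, SE 0.062), Kif23, the motor of the central spindle (-1.81, SE 0.045), and Cenpm of the inner kinetochore (-1.64, SE 0.094). Spdl1, which brings dynein to kinetochores (-1.46), Esco2, which acetylates cohesin (-1.44), and the condensin II subunit Ncapg2 (-1.31) were the largest in theirs.

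Of 18 genes of the anaphase promoting complex and its partners 10 fell and 0 rose, with a median of -0.25, and its cullin-like subunit Anapc2 had 4095, 3924 and 4027 normalized counts with ferroptotic medium and 3681, 4109 and 4151 with control medium (limma adjusted p = 0.857). Of 12 cohesin genes 9 fell and 0 rose, with a median of -0.45, and the cohesin loader Nipbl stood at -0.01 (SE 0.042; limma adjusted p = 0.867). The inner kinetochore gene Cenpt (0.00, SE 0.070) and the MuvB gene Lin37 (0.02, SE 0.10) did not pass either, nor did the kinetochore corona gene Zw10 (0.07, SE 0.035), except that Zw10 rose with quantile normalization (0.11, limma adjusted p = 0.0249). In condensin II and the spindle list the smallest changes passed, Ncaph2 of condensin II (-0.55, SE 0.039) and Numa1 of the spindle pole (-0.29, SE 0.044).

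The 3 genes that rose were Zwint, Mad2l1bp and Ensa. Zwint (ENSMUSG00000019923), which joins KNL1 to the kinetochore corona, had 8961, 8781 and 8894 normalized counts with ferroptotic medium and 6176, 6058 and 5363 with control medium (0.60, SE 0.053; limma adjusted p = 3.07e-05). It was the largest rise of the 3, held in 13 of 13 alternatives, while its partner Knl1 fell. Mad2l1bp, which takes MAD2 off the checkpoint complex, changed by 0.26 (limma adjusted p = 0.031; highest 0.104 over the alternatives, so that the call held in 8 of 13). Ensa, an inhibitor of the phosphatase that opposes CDK1, changed by 0.12 (limma adjusted p = 0.0172; highest 0.0613, the call held in 10 of 13).

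Side by side, 11 mitotic kinesin genes all passed as lower, with a median of -1.67. Of 34 DNA replication genes 33 passed as lower, 18 of them at least 2-fold, and the median of the list was -1.05. Fen1 did not pass (-0.68, SE 0.43, limma adjusted p = 0.286), with control libraries at 5604, 5792 and 2251 normalized counts. Of all genes tested 22.8% were lower and 3.7% at least 2-fold lower. The difference between these lists and the 46 genes was not tested.

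**Figure D5:**
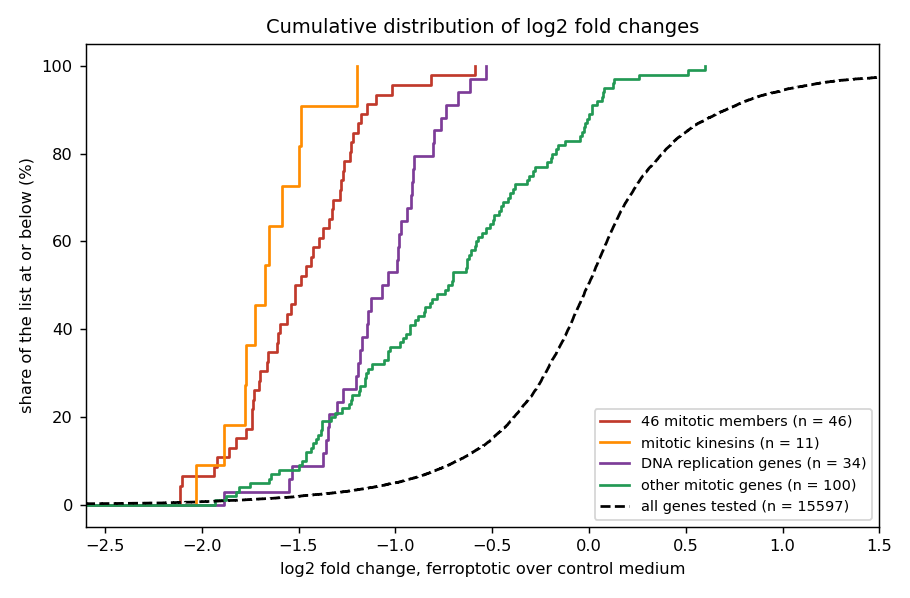
Cumulative share (percent, vertical axis) of each list at or below a log2 fold change (horizontal axis, ferroptotic over control medium) for the 46 genes, mitotic kinesins, DNA replication genes, the further mitotic genes and all genes tested. The 46 genes lie between -2.11 and -0.59, and the further mitotic genes spread from -1.93 to 0.60.

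Reads assigned to genes numbered 39624311 to 41953603 per ferroptotic library and 43419446 to 50557794 per control library, as worked out from the deposited values, and no library held fewer than 225 reads for any of the 46 genes. Genes shared by macrophages and microglia ranged widely in level. Csf1r was highest, at 58594 normalized counts with ferroptotic and 76237 with control medium. Low ones were Cx3cr1 (222 with ferroptotic and 335 with control medium) and Aif1 (159 with ferroptotic and 203 with control medium). Neither passed (limma adjusted p = 0.233 for Cx3cr1 and 0.0528 for Aif1). The microglial markers P2ry12 and Tmem119 had 3 and 21 reads over all 6 libraries. The summed marker list of microglia and macrophages was 171224 to 178686 with ferroptotic and 188397 to 194177 with control medium, with 3 of 11 tested genes lower and 3 higher. The lower ones were Trem2 (-1.36), Csf1r (-0.38) and Cd68 (-0.28), and the higher ones Tyrobp (0.19), Fcer1g (0.19) and Irf8 (0.18). Of other cell types, astrocyte markers summed to 4182 to 4367 with ferroptotic and 3362 to 3652 with control medium (1 of 4 tested lower, 2 higher). Most of that was Aldoc (3089 with ferroptotic and 2589 with control medium), and Gja1 also passed as higher (1084 with ferroptotic and 769 with control medium). Slc1a2 and Slc1a3 had 3 and 5 reads over all 6 libraries, and Aqp4 was not listed among the 26096 genes. Oligodendrocyte markers summed to 6146 to 6359 with ferroptotic and 8826 to 9386 with control medium (3 of 5 tested lower, 1 higher). Most of that was Mbp (4101 with ferroptotic and 6608 with control medium), and Mog, Mobp, Olig1 and Olig2 were not listed. The higher one was Mag (141 with ferroptotic and 68.9 with control medium). Neuronal markers summed to 1275 to 1398 with ferroptotic and 723 to 796 with control medium (0 of 3 lower, 2 higher). Most of that was Syn1 (1233 with ferroptotic and 730 with control medium), and Rbfox3, Snap25 and Syt1 were not listed. Tubb3 also passed as higher, from a low level (61.3 with ferroptotic and 4.99 with control medium). Endothelial and mural markers summed to 390 to 422 with ferroptotic and 317 to 342 with control medium (0 of 4 lower, 1 higher). Most of that was Pecam1 (299 with ferroptotic and 209 with control medium), and Cldn5 and Rgs5 were not listed. Fibroblast markers summed to 44.0 to 76.4 with ferroptotic and 11.7 to 11.8 with control medium (1 of 1 higher), and Pdgfra was not listed. Neutrophil markers summed to 136 to 159.5 with ferroptotic and 9.25 to 15.7 with control medium (1 of 1 higher). Nearly all of that was S100a8 (144 with ferroptotic and 13.2 with control medium). Mpo and Elane had 7 and 3 reads over all 6 libraries, and S100a9, Ly6g and Camp were not listed. Any part of other cell types in the fall of the 46 genes was not tested.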

How the data were processed

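The submitters' processing notes name the tools R 3.4.3, DESeq2 1.18.1, HISAT2 2.1.0 and fastp 0.17.1. Build, annotation, counting tool and use of strand: not given in the sources used here. Deposited log2 values equal log2 of a count over a library size factor, plus 1: with the log undone, 100% of values per library were whole multiples of 1 step, within 0.01. The authors deposited FPKM for 1699 genes only. The deposited p-value and false discovery rate columns were not used for calls. In the authors' deposited table all 46 genes have a false discovery rate of 0.000253 or less.

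Normalized counts are these values with the log undone. The 15597 genes that reached 10 normalized counts in 3 or more libraries were fitted with limma 3.58.1 (trend, robust, two-sided) in R 4.3.3, medium being the one term, with Benjamini-Hochberg adjustment over all of them and a threshold of 0.05. This was the test planned for log2 values. SE is limma's moderated standard error. Ratios, exact permutation tests (SciPy 1.17.1) and sequence matches were computed in Python 3.11.15. The NRF1 site was searched too and found in 0 of the 38 promoters (1.07% of all and 2.38% of tested genes). Read numbers rest on the whole steps and may be estimated counts. Replicates differed by more than sampling noise (chi-square per degree of freedom 16.3 to 22.8). In GENCODE M21, 13 of the 46 genes share exon bases with another gene model, and in 6 of these (Ccna2, Cdc20, Cdca8, Ncapg, Prc1 and Sgo2a) the other gene has at least 5% of the member's control level, so that without strand some reads cannot be told apart. The members and lists were chosen with earlier results of these data known. Values per library are given for the largest and smallest change of each role. Of the further mitotic lists the largest, the smallest and every rise are named, with other genes chosen after their values were seen. Alternatives were 2 other filters, a pseudocount of 10, quantile normalization, limma-voom with TMM factors, limma without trend and robust, a replicate block and each library left out.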

Additional observations from a re-analysis of the deposited data

How the results depend on the processing

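Of the 46 genes, 45 kept their fall and their call in all 13 alternatives, with log2 fold changes at 0.898 to 1.10 times the main value. Those that passed with a fall of at least 2-fold numbered 44 in the main fit. That number was 43 with quantile normalization, limma-voom, the replicate block or any library left out, and 44 in the other alternatives. Foxm1 lost its call in 6 of the 13 (limma-voom, the replicate block, and leaving out any ferroptotic library or control replicate 2) and kept its direction in all. Across all genes 6629 passed, and between 5798 and 6188 did with a library left out. No pairing of the samples was taken from the replicate numbers. Same-numbered libraries deviated from their group means with correlations of 0.00859, -0.0196 and -0.0393. With 3 libraries per group such correlations cannot exclude a pairing. With the replicate block 6226 genes passed, 45 of the 46 fell, and Foxm1 had an adjusted p of 0.0814. Higher genes among the further 100 numbered 3, and 1 to 3 with a library left out (1, Zwint, without ferroptotic replicate 2 or control replicate 2). Of the named genes that did not pass, Nipbl, Lin37, Cenpt and Anapc2 changed sign in some alternatives, and Zw10 stayed positive in all. Nipbl was 0.044 with quantile normalization and 8.32e-05 in limma-voom. With a library left out Nipbl ran from -0.035 to 0.025, Lin37 from -0.039 to 0.092, Cenpt from -0.025 to 0.042 and Anapc2 from -0.041 to 0.046. The cause was not tested. No library had under 225 reads for any of the 46 genes, and 3 libraries per group cannot take an exact permutation p below 0.1.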
